A study of Triticum aestivum with 10 samples.

Results

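The 117 probes described here were raised in cold leaves and lowered in cold shoots of a wheat line with hybrid necrosis, each relative to a wild-type line. They were chosen by their measured signals, out of 37826 probes on the array that are not controls. A probe's level is the log2 of its processed intensity minus the 75th percentile of its array, so 75% of the probes lie below a level of 0. A probe was taken where the mean level of necrotic leaf exceeded wild-type leaf by at least 1.5 and the mean level of necrotic shoot lay at least 1.5 below wild-type shoot. It also had to be well above background, as the scanner software judged it, on both arrays of necrotic leaf and on both arrays of wild-type shoot. The members made up 0.309% of all probes, 8.68% of the 1348 probes that met the leaf condition and 6.41% of the 1825 that met the shoot condition.

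The study used 2 lines of synthetic hexaploid wheat, one with a wild-type phenotype and one with cold-induced hybrid necrosis. Every plant spent its first 3 weeks at 23 °C, and for the necrotic line a leaf group was taken then. The remaining groups had been moved to 4 °C, where leaves of either line stayed for 12 weeks and shoots, apical meristem included, for 6 weeks. Each of the 5 groups had 2 arrays with 1 Cy3-labelled sample each, and the series' design text speaks of independent experiments without saying whether plants were pooled. Each line is 1 genotype, so a difference between the lines is a difference between these lines and not between the phenotypes at large. No wild-type group at 23 °C was used here.

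Synthetic hexaploid wheat is made by crossing tetraploid wheat with the wild goat grass Aegilops tauschii and doubling the chromosomes of the hybrid. In hybrid necrosis, gene combinations that are harmless in the parents lead to yellowing and death of leaf tissue without a pathogen, and in the cold-induced type the symptoms appear at low temperature. The shoot apical meristem is the small dome of dividing cells from which new leaves and, later, the ear arise, and a shoot sample contains it together with young leaves and stem.

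The files name probes by the clone or contig they were designed on and give no gene. None of the 37826 probe names (0 matches) was found in the RefSeq gene table, so no gene name, function or sequence is given for any member, and the leaf and shoot identity of the samples was not checked with marker genes. Probes are called by the names in the files. Sample replicates correlated at 0.994 to 0.997 (Pearson's r across all probes), and 28487 to 32630 probes an array were well above background. The median gap between the 2 arrays of a group over the members ran from 0.06 in wild-type shoot to 0.21 in wild-type leaf, against 0.12 over all probes in wild-type leaf. The number of arrays limits the precision of every value. The 4 cold leaf arrays lay on 1 slide, the 4 shoot arrays on another and the 2 arrays at 23 °C on the other one of the 3 slides, so line comparisons lie within a slide. Temperature and tissue comparisons lie between slides, and slide, plant age, weeks of cold, temperature and tissue cannot be told apart in them.

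The line differences used for the choice are described first, with no test. Over the 117 members the necrotic minus wild-type difference in leaf had a median of 2.58 (range 1.51 to 8.76), and that in shoot a median of −2.00 (range −6.44 to −1.5). Both arrays of necrotic leaf exceeded both arrays of wild-type leaf in 117 of 117, and both arrays of necrotic shoot lay below both arrays of wild-type shoot in 117 of 117. The choice on the means of these arrays makes such a separation likely. Its share over all probes was not counted, so nothing is read from it. The leaf rise was the larger of the changes in 78 members. A leaf rise of at least 4 was seen in 21 members and a shoot fall of at least 4 in 12. The thresholds were met by every pairing of 1 necrotic with 1 wild-type array in 85 members, so the other members rest on the mean.

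Weak signal limits the leaf side. Wild-type leaf was well above background on both arrays for 65 members, on 1 array for 7 and on 0 arrays for 45. For those 45 the leaf rise is a lower bound only, from at least 1.19-fold to at least 103-fold with a median of at least 2.86-fold. For that bound, a wild-type array counted with the lowest signal that was well above background on it, or with the signal of the probe where that was higher. The bound reached the 2.83-fold that the threshold stands for in 23 of the 45. On the shoot side, necrotic shoot was well above background on both arrays for 103 members and on 0 arrays for 11, with bounds from at least 1.37-fold to at least 21.1-fold. With every level below the lowest signal well above background raised to that signal, 92 of the 117 still met both thresholds. In all, 48 members were well above background on all 10 arrays.

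The probes nearest to the thresholds show how the choice was made. In leaf, MUGEST2003_23lib_Contig16971_240 and wheat0130Contig9783 were just inside, both at 1.51, and wheat0130Contig10187 at 1.47 and wheat0130Contig3367 at 1.42 were just outside. In shoot, whe18d21 at −1.5 and wheat0130Contig4850 at −1.51 were just inside, and MUGEST2003_23lib_Contig3566_757 at −1.49 and MUGEST2003_23lib_Contig18562_1281 at −1.47 were just outside. The step from member to non-member is smaller here than the median gap of 0.21 between the wild-type leaf arrays.

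**Figure D1:**
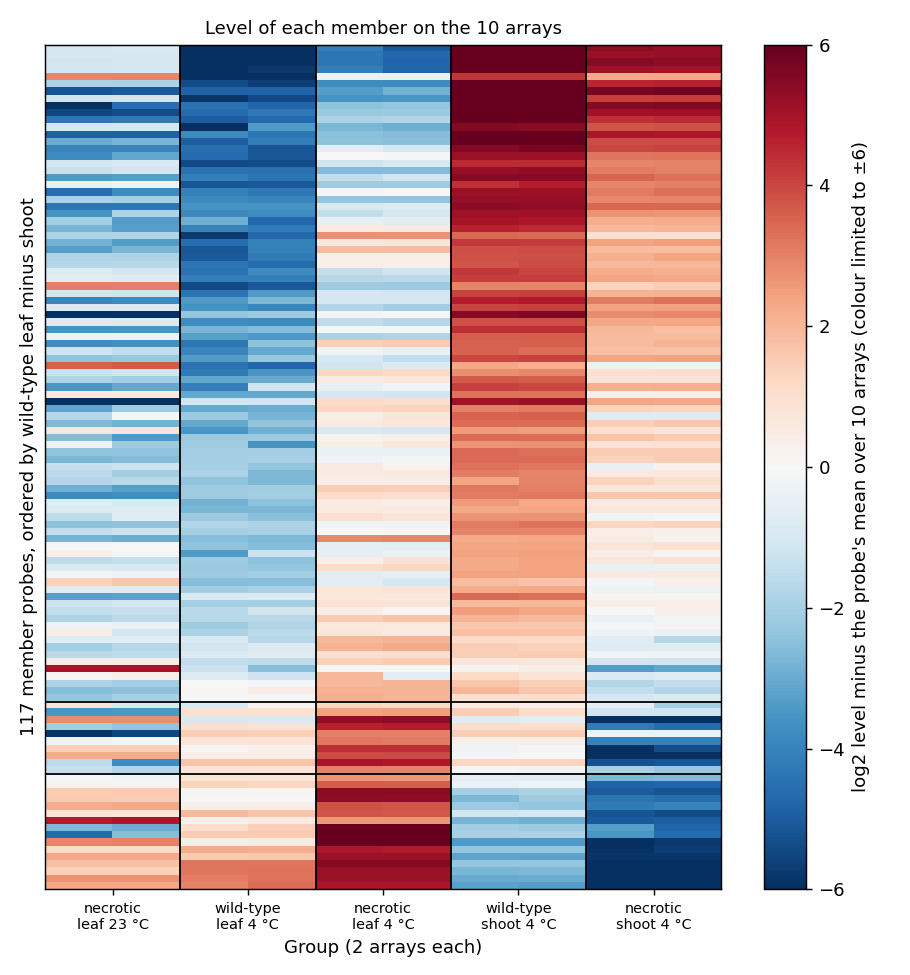
Level of the 117 members (rows, ordered by wild-type leaf minus shoot at 4 °C) on the 10 arrays (columns, 2 a group); the colour is the log2 level minus the probe's mean over the 10 arrays, limited to 6 on either side. Horizontal lines part the 91 members higher in wild-type shoot (top), the 10 within 2-fold and the 16 higher in wild-type leaf (bottom); the line differences within leaf and within shoot were used to choose the members.

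The members were not alike in where the wild-type line had its higher level. Wild-type shoot was at least 2-fold above wild-type leaf in 91 members, wild-type leaf was at least 2-fold above wild-type shoot in 16, and 10 were within 2-fold. The median of wild-type leaf minus wild-type shoot was −5.39 over the members and −0.22 over the 33096 probes tested. It was −1.77 over the probes that met the leaf condition and −5.00 over those that met the shoot condition. In the fit over all probes (limma, Benjamini-Hochberg adjusted p under 0.05 and at least 2-fold), 16 members were called higher in wild-type leaf, where 23.8% of all probes tested were, and 91 were called lower, where the share was 34.5%. These contrasts use wild-type arrays that also entered the choice, which asked for low wild-type leaf and high wild-type shoot, so nothing is read from these counts. Scaling each array to its median instead moved the median of all probes tested from −0.22 to 0.17 and the calls over all probes from 7878 higher and 11427 lower to 10259 and 9388. The members' calls moved to 17 higher and 90 lower. In bulk tissue, fewer cells of a type and less RNA per cell cannot be told apart.

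In the necrotic line, leaf was at least 2-fold above shoot in 41 members, shoot was at least 2-fold above leaf in 51, and 25 were within 2-fold. The choice itself places leaf minus shoot at least 3 higher in the necrotic line than in the wild type for every member, so the shift is no finding; where each probe ends up is a description. The fit called 40 members higher in necrotic leaf than in necrotic shoot, beside 16.6% of all probes tested, and 51 lower, beside 29.6%. Both sides share arrays with the choice and nothing is read from these counts either. Under scaling to the median, 44 members were called higher and 44 lower, and calls over all probes went from 5482 higher and 9797 lower to 8214 and 7360. The median over all probes moved from −0.24 to 0.19 with it.

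**Figure D2:**
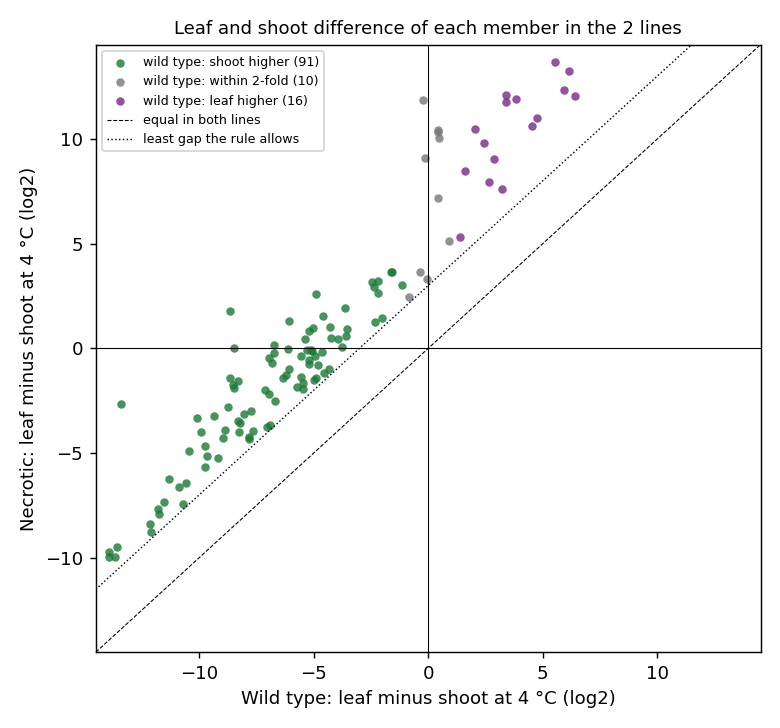
Leaf minus shoot level at 4 °C (log2) in the wild type (horizontal) and in the necrotic line (vertical) for the 117 members, coloured by their wild-type class. The choice places every point on or above the dotted line; the 15 members in the upper left quadrant with at least 2-fold on both sides, all of the shoot-higher class, had their tissue order turned by their means, 3 of them with the limits given in the text.

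The 16 members higher in wild-type leaf formed the first class. In the wild type their median level was −0.48 in leaf and −3.39 in shoot, and in the necrotic line 3.74 in leaf and −7.06 in shoot. All 16 were well above background in wild-type leaf on both arrays, and 11 were so in necrotic shoot. The median line difference was 2.45 in leaf and −2.88 in shoot. The wild type already showed a gap between the tissues in this class, with a median of 3.40, and in the necrotic line the median was 10.81. The choice itself widens this gap by at least 3 in every member, so the widening is no finding.

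The brightest member in cold necrotic leaf was wheat0130Contig15419. It read 4.23 and 4.42 in wild-type leaf and 6.37 and 6.34 in necrotic leaf at 4 °C, −1.84 and −1.83 in wild-type shoot and −6.82 and −6.94 in necrotic shoot. Both leaf groups lay far above both shoot groups, and the line difference was 4.08-fold in leaf and 33.1-fold in shoot. At 23 °C the necrotic leaf read 3.86 and 3.87, below both cold leaf groups. The other members with the brightest cold necrotic leaf had the same order of groups, except whsh_allContig1037, whose level at 23 °C lay above wild-type cold leaf.

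whsh_allContig941 read 1.47 and 1.47 in necrotic leaf at 23 °C, 3.24 and 3.27 in wild-type cold leaf, 5.23 and 5.21 in necrotic cold leaf, −2.72 and −2.65 in wild-type shoot and −7.13 and −7.07 in necrotic shoot. whsh_allContig113 read 2.63 and 2.63, 3.33 and 3.67, 5.24 and 5.24, −2.87 and −2.95, and −6.67 and −6.94 in the same groups. In both probes no array of one group overlapped with an array of another. The shoot fall, at 21.4-fold for whsh_allContig941 and 14.9-fold for whsh_allContig113, was larger than the leaf rise of 3.91-fold and 3.35-fold.

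whsh_allContig1037 had one of the largest leaf rises among the members measured on all cold arrays. It read −0.67 and −0.59 in wild-type leaf and 4.84 and 4.86 in necrotic leaf at 4 °C, a 44.8-fold difference. Its shoot levels were −4.47 and −4.47 in the wild type and −7.27 and −6.87 in the necrotic line, a 6.04-fold difference. At 23 °C it read 1.82 and 1.89, between the cold leaf groups. whsh_allContig574 and rwhsh15n12 followed the same order, with leaf rises of 40.9-fold and 40.1-fold and shoot falls of 4.06-fold and 8.60-fold. whsh_allContig574 read 0.89 and 0.84 at 23 °C, −0.67 and −0.71 in wild-type cold leaf, 4.67 and 4.66 in necrotic cold leaf, −3.39 and −2.83 in wild-type shoot and −5.06 and −5.21 in necrotic shoot. rwhsh15n12 read 0.25 and 0.29, −1.21 and −1.18, 4.14 and 4.13, −3.30 and −3.19, and −6.26 and −6.44 in those groups. The groups did not overlap in either probe.

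whsh_allContig1171 also belonged to this class, with a smaller tissue gap in the wild type. It read 1.48 and 1.44 in wild-type leaf and −0.20 and −0.13 in wild-type shoot, against 3.78 and 3.76 in necrotic leaf and −4.73 and −4.63 in necrotic shoot. The leaf difference was 4.95-fold and the shoot difference 22.9-fold. At 23 °C it read 0.36 and 0.31, lower than either cold leaf group.

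The 10 members within 2-fold between wild-type leaf and shoot formed the second class. Their median level was −3.42 in wild-type leaf and −3.53 in wild-type shoot, but 0.10 in necrotic leaf and −7.46 in necrotic shoot. The median shoot fall of this class was the deepest of the 3 classes, at −4.93, and the leaf rise was the larger change in only 2 of 10. Necrotic shoot was well above background on both arrays in 6 of the 10. All 10 were at least 2-fold higher in necrotic leaf than in necrotic shoot. The choice fixes this for every member within 2-fold in the wild type, so it is no finding.

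whsh_allContig905 showed the largest shoot fall among the members measured on all cold arrays. In shoot it read −1.43 and −1.32 in the wild type and −7.86 and −7.77 in the necrotic line, an 86.4-fold difference. In leaf at 4 °C it read −0.92 and −0.94 in the wild type and 2.61 and 2.62 in the necrotic line, an 11.7-fold difference. The 4 wild-type arrays thus lay close together while the necrotic leaf and shoot arrays lay on opposite sides of them, and the arrays at 23 °C, at 0.89 and 0.92, fell between the cold leaf groups.

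whsh_allContig946 also had close wild-type levels, with −1.66 and −1.72 in leaf and −1.54 and −1.56 in shoot. The small wild-type gap ran the other way than in whsh_allContig905, with shoot slightly higher. Its necrotic levels at 4 °C were 2.02 and 2.14 in leaf, 13.7-fold higher than the wild type, and −6.83 and −7.21 in shoot, 44.5-fold lower. It differed from whsh_allContig905 at 23 °C, where it read −4.69 and −4.99 and lay below both cold leaf groups. wheat0130Contig8232, a dimmer probe of this class, read −6.09 and −6.49 at 23 °C, −3.95 and −3.95 in wild-type cold leaf, −1.71 and −1.74 in necrotic cold leaf, −4.79 and −4.88 in wild-type shoot and −6.70 and −6.99 in necrotic shoot. There the leaf rise of 4.66-fold and the shoot fall of 4.02-fold were of like size.

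**Figure D3:**
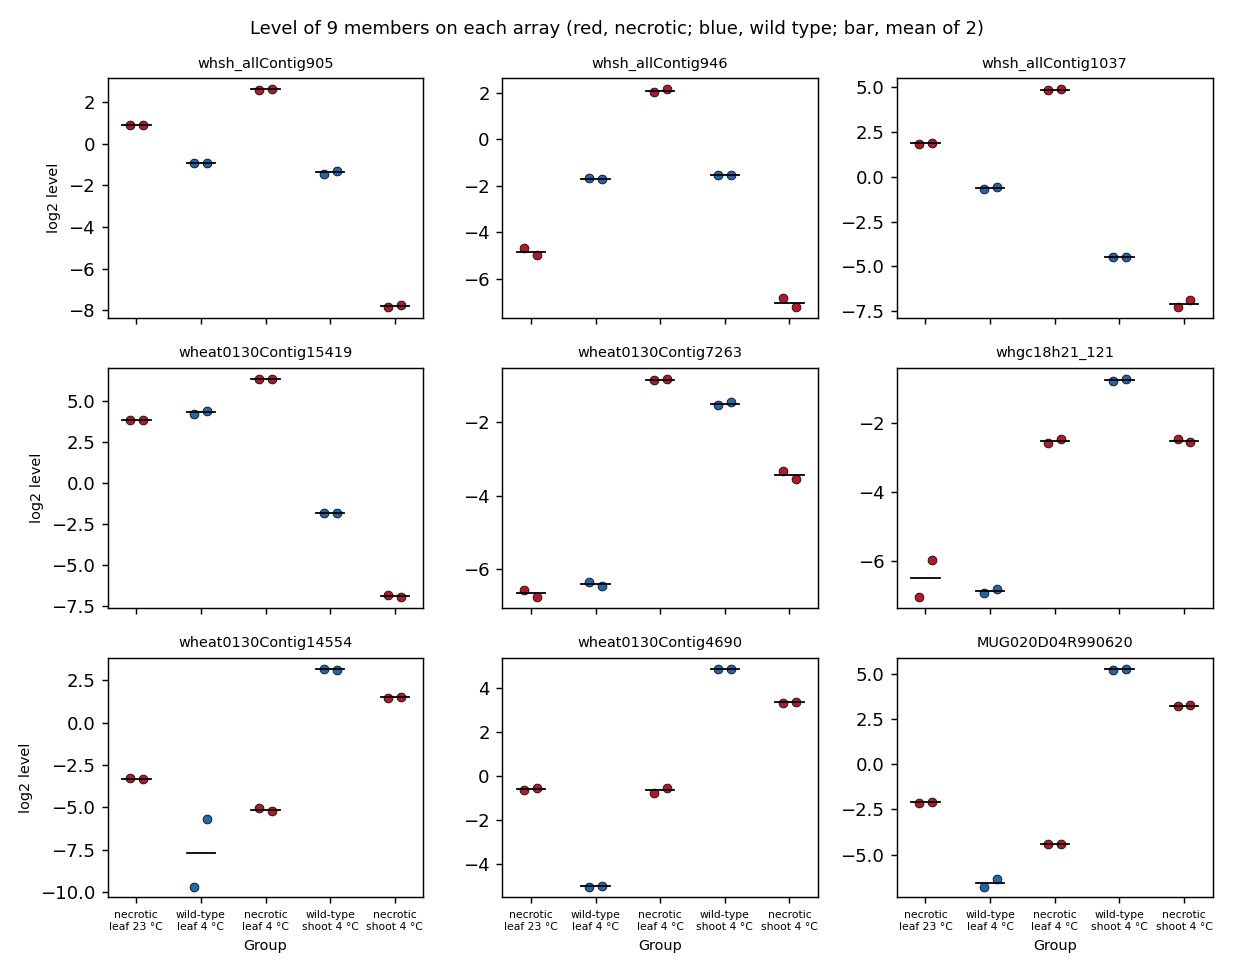
Level (log2, each panel with its own scale) of 9 members on each of the 10 arrays; points are single arrays, bars the mean of 2, red the necrotic line and blue the wild type. The top row and wheat0130Contig15419 hold members of the leaf-higher and even classes, with the necrotic shoot lowest; the rest are members with the higher level in wild-type shoot, and wheat0130Contig14554 has its wild-type leaf arrays far apart.

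The 91 members higher in wild-type shoot were the third and largest class. Their median level was −7.74 in wild-type leaf, close to the lowest level that counted as well above background there (−7.89 and −8.19 on its 2 arrays). It was −4.81 in necrotic leaf, −0.54 in wild-type shoot and −2.42 in necrotic shoot. Wild-type leaf was well above background on no array for 44 of the 91. In 87 members the necrotic shoot, though lowered, was still above wild-type leaf. In 84 members wild-type shoot was above cold necrotic leaf. In the necrotic line 51 of the 91 kept at least 2-fold more in shoot, 25 were within 2-fold and 15 had turned to at least 2-fold more in leaf.

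The 15 members whose order turned had arrays that did not overlap on either side, and 7 of them were well above background on all 10 arrays. The choice widens the gap between the lines, and how many of all probes turned in this way was not counted. Nothing is therefore read from the number 15. wheat0130Contig13387, one of the 15, rests on a spot with an outlier mark, since its necrotic leaf arrays read −5.35 and −8.04; in the fit, where that spot is missing, its necrotic leaf minus shoot difference was 0.11. In MUGEST2003_23lib_Contig19496_1374 and wheat0130Contig11990 wild-type leaf was not well above background, and the wild-type shoot excess is bounded at at least 1.99-fold and at least 1.86-fold. The other 12 had neither a marked spot nor a bound under 2-fold. These 3 probes were named after their values were seen. wheat0130Contig7263 had the largest leaf rise among the members measured on all cold arrays. It read −6.33 and −6.46 in wild-type leaf and −0.87 and −0.83 in necrotic leaf at 4 °C, a 46.6-fold difference, and −1.53 and −1.46 in wild-type shoot and −3.34 and −3.53 in necrotic shoot, a 3.84-fold difference. Its arrays at 23 °C, at −6.54 and −6.74, lay slightly below wild-type cold leaf. wheat0130Contig12593 had the smallest wild-type gap of the 15, a leaf minus shoot difference of −1.14. It read −4.00 and −3.94 in wild-type leaf and −2.88 and −2.77 in wild-type shoot, against −1.75 and −1.84 in necrotic leaf and −4.92 and −4.73 in necrotic shoot, and −6.22 and −5.86 at 23 °C.

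whgc18h21_121 was the member nearest to the median profile of those lower at 23 °C. It read −6.92 and −6.82 in wild-type leaf, −2.60 and −2.49 in necrotic leaf, −0.80 and −0.75 in wild-type shoot and −2.49 and −2.57 in necrotic shoot. The arrays of necrotic leaf and shoot overlapped, where those of the wild type were 68.4-fold apart. At 23 °C its arrays were the least alike, at −7.03 and −5.97.

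Among the members that kept a shoot excess, MUG020D04R990620 read −6.77 and −6.36 in wild-type leaf, −4.44 and −4.40 in necrotic leaf, 5.20 and 5.27 in wild-type shoot and 3.20 and 3.27 in necrotic shoot. The line difference was 4.42-fold in leaf and 3.99-fold in shoot, while both shoot groups stayed far above both leaf groups. wheat0130Contig4690 read −5.03 and −4.98 in wild-type leaf, −0.78 and −0.52 in necrotic leaf, 4.89 and 4.90 in wild-type shoot and 3.34 and 3.38 in necrotic shoot. Here the leaf rise was 20.5-fold and the shoot fall 2.89-fold. MUG001D05R990520 read −6.42 and −6.34, −3.45 and −3.43, 3.11 and 3.41, and 1.65 and 1.73 in the same order of groups. wheat0130Contig7046 read −7.48 and −7.52, −5.44 and −5.56, −1.15 and −1.19, and −4.14 and −4.06. In these 2 probes also the groups did not overlap.

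wheat0130Contig14554 shows a member that rests on 1 array. In wild-type leaf it read −9.67 on 1 array and −5.69 on the other, and only the second was well above background. Necrotic leaf read −5.02 and −5.24, above the second array by less than 1. Shoot read 3.20 and 3.15 in the wild type and 1.46 and 1.53 in the necrotic line, and the arrays at 23 °C read −3.28 and −3.33.

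Some members with larger leaf rises had no measured level in a group, and the following 4 were chosen after their values were seen. whfl_allContig1099 was not well above background in wild-type leaf and read −1.34 and −1.38 in necrotic leaf at 4 °C, at least 103-fold higher. Its shoot levels were 3.30 and 3.30 in the wild type and 1.26 and 1.34 in the necrotic line, and at 23 °C it read 1.90 and 1.91, above both cold leaf groups. wheat0130Contig12557 was likewise not well above background in wild-type leaf, and necrotic leaf, at −1.60 and −1.64, was at least 85.9-fold higher. Its levels were −0.90 and −0.95 in wild-type shoot, −3.39 and −3.41 in necrotic shoot and −6.22 and −6.16 at 23 °C.

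The other members of these 4 were higher in wild-type leaf than in wild-type shoot. wheat0130Contig5714 read −3.41 and −3.38 in wild-type leaf and 3.12 and 3.12 in necrotic leaf at 4 °C, a 91.4-fold difference, with −6.84 and −6.78 in wild-type shoot and −8.40 and −9.53 in necrotic shoot, where 1 array was well above background. wheat0130Contig15386 read −3.75 and −3.36 in wild-type leaf and 2.97 and 2.91 in necrotic leaf, a 90.0-fold difference, with −6.85 and −7.01 in wild-type shoot and no array of necrotic shoot well above background. Neither was well above background at 23 °C, where cold necrotic leaf was at least 1275-fold higher for wheat0130Contig5714 and at least 1124-fold higher for wheat0130Contig15386.

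The arrays at 23 °C were the only ones that did not enter the choice. They show the necrotic line's leaf at 3 weeks, before cold. Cold necrotic leaf was at least 2-fold above the level at 23 °C in 84 members, within 2-fold in 14 and at least 2-fold below it in 19. The median of cold minus 23 °C was 2.20 over the members and −0.18 over the 33045 probes tested. The fit called 83 members higher in the cold, beside 12.2% of all probes tested, and 18 lower, beside 18.2%. Cold necrotic leaf entered the choice as a high value, so an excess over another group is partly built in and nothing is read from the higher count. Over the 1348 probes that met the leaf condition alone the median was 1.32, with 756 at least 2-fold higher and 166 lower. Over the 458 raised in both tissues of the necrotic line the median was 1.76, and over the 1825 that met the shoot condition −0.84.

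Signal strength moves with this result. At 23 °C 74 members were well above background on both arrays, 5 on 1 array and 38 on 0 arrays. The lowest level well above background was −7.24 and −7.16 at 23 °C and between −7.89 and −8.61 on the other arrays, so a dim probe has a higher bound at 23 °C. For the 38 members, cold necrotic leaf was at least 2-fold above the bound in 21 and not above it in 8. Of the 79 members measured at 23 °C on at least 1 array, cold necrotic leaf was at least 2-fold higher in 46 and at least 2-fold lower in 19. Over the 48 members measured on all 10 arrays the numbers were 34 higher, 8 within 2-fold and 6 lower. With normexp background correction of the median spot signal (offset 50), 42 members were called higher and 18 lower with a median of −0.06. Over all probes tested that setting gave 2102 higher and 4693 lower and moved the median from −0.18 to −0.48, and the cause was not tested.

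The level at 23 °C is given here by class as a description of means, with no test of a difference between the classes. The choice partly builds in the excess of cold necrotic leaf in each class. Over all 37826 probes, 4141 were at least 2-fold higher in cold than in 23 °C necrotic leaf and 8274 at least 2-fold lower. Of the 16 members higher in wild-type leaf, 15 were at least 2-fold higher in cold than in 23 °C necrotic leaf and 1 lower. All 10 of the even class were at least 2-fold higher by their means, but rwhf1h17 was not called (difference 1.24, adjusted p 0.14, limma). Of the 91 higher in wild-type shoot, 59 were higher, 14 within 2-fold and 18 lower. Both arrays at 23 °C were well above background in 14 of the 16, 6 of the 10 and 54 of the 91. Some of these counts thus rest on levels near background.

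Against both cold leaf groups, the level at 23 °C lay below both in 43 members, between them in 47 and above both in 27. Among members measured on all 10 arrays these numbers were 20, 17 and 11. The level at 23 °C minus wild-type cold leaf had a median of 1.07 and was above 0 in 74 of 117. Its median was 1.21 over the 1348 probes that met the leaf condition and 0.28 over all 37826 probes. Where neither group was well above background, as in whe18d21, the sign is no measured difference. Of all 1348 probes that met the leaf condition, 627 (46.5%) lay between the cold leaf groups at 23 °C.

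**Figure D4:**
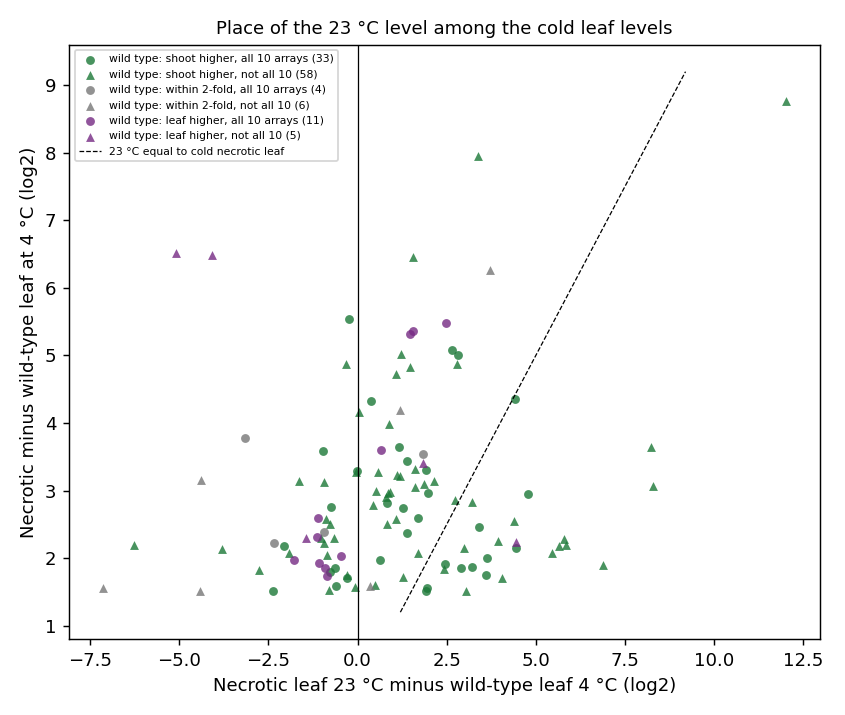
Necrotic leaf at 23 °C minus wild-type leaf at 4 °C (horizontal, log2) against necrotic minus wild-type leaf at 4 °C (vertical, log2; used for the choice) for the 117 members, coloured by wild-type class. Circles are the 48 members well above background on all 10 arrays and triangles the others; 43 points left of the solid line were lower at 23 °C than both cold leaf groups, 47 between the lines lay between them, and 27 right of the dashed line were higher than both.

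Among members measured on all 10 arrays, MUG001D05R990520 stood highest at 23 °C relative to wild-type cold leaf, at −1.69 and −1.5, a difference of 4.78. Cold necrotic leaf lay below that, by a log2 difference of −1.84. MUG020D04R990620 read −2.13 and −2.09 at 23 °C, above cold necrotic leaf by a difference of −2.31. wheat0130Contig7046 read −3.82 and −3.94 at 23 °C, again above cold necrotic leaf by a difference of −1.62. In these 3 probes the wild-type leaf was lowest, the cold necrotic leaf intermediate and the 23 °C leaf highest of the leaf groups, with no overlap between arrays. They were named for a high level at 23 °C, so the order is a description with no test.

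wheat0130Contig4690 stood level between the temperatures, with −0.62 and −0.55 at 23 °C against −0.78 and −0.52 in cold necrotic leaf. The arrays overlapped, and the cold minus 23 °C difference was −0.06. Its sign turned under scaling to the median (0.05). wheat0130Contig14554 was higher at 23 °C by its means, with a cold minus 23 °C difference of −1.82. Whether it was called turned with the groups in the fit: over all groups, its spread in wild-type leaf included, the adjusted p was 0.172 (limma), and with only the compared groups it was 0.000267 (limma). MUGEST2003_23lib_Contig7816_p_401, nearest to the median profile of the members within 2-fold, read −3.96 and −4.20 at 23 °C and −4.50 and −4.48 in cold necrotic leaf, with −6.05 and −5.96 in wild-type leaf. Its shoot levels were −1.47 and −1.44 in the wild type and −3.34 and −3.33 in the necrotic line.

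At the other end, whsh_allContig946 lay below wild-type cold leaf at 23 °C (difference −3.15) and stood 6.92 higher in cold necrotic leaf than at 23 °C, which is a description, since both sides entered its naming or choice. MUGEST2003_23lib_Contig16971_240 read −4.85 and −4.80 at 23 °C, −2.48 and −2.42 in wild-type cold leaf and −0.94 and −0.95 in necrotic cold leaf. In shoot it read 1.82 and 1.74 in the wild type and −1.46 and −1.46 in the necrotic line. wheat0130Contig8232 and wheat0130Contig12593 also lay at least 2 below wild-type cold leaf, by differences of −2.35 and −2.07. In these 4 probes both cold leaf groups were above the 23 °C leaf, the wild type included, and the arrays did not overlap. They were named for a low level at 23 °C and chosen with necrotic above wild-type cold leaf. The order is therefore a description with no test.

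Some members resembled each other across arrays, which is partly built in, since the choice asked for like line differences on the cold arrays. Of 6786 pairs of members, 14 ran parallel, meaning that after removing the mean offset no array departed by over 0.5. These pairs fell into 4 sets of 5, 4, 3 and 2 members, and how often other probes run parallel was not counted. The set of 4, wheat0130Contig903, wheat0130Contig8613, wheat0130Contig4850 and wheat0130Contig11089, had mean offsets of at most 0.51 between any pair. wheat0130Contig903 read −3.39 and −3.37 at 23 °C, −6.42 and −7.12 in cold necrotic leaf, 4.71 and 4.73 in wild-type shoot and 2.78 and 2.67 in necrotic shoot. None of the 4 was well above background in wild-type leaf, and their leaf rises are bounds of at least 1.59-fold to at least 2.34-fold. All 4 were lower in cold necrotic leaf than at 23 °C, by differences from −3.39 (wheat0130Contig903) to −3.67 (wheat0130Contig11089). Whether these contigs are one transcript, copies from the 3 wheat genomes or different genes was not tested, and probes with near-identical targets may share signal.

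**Figure D5:**
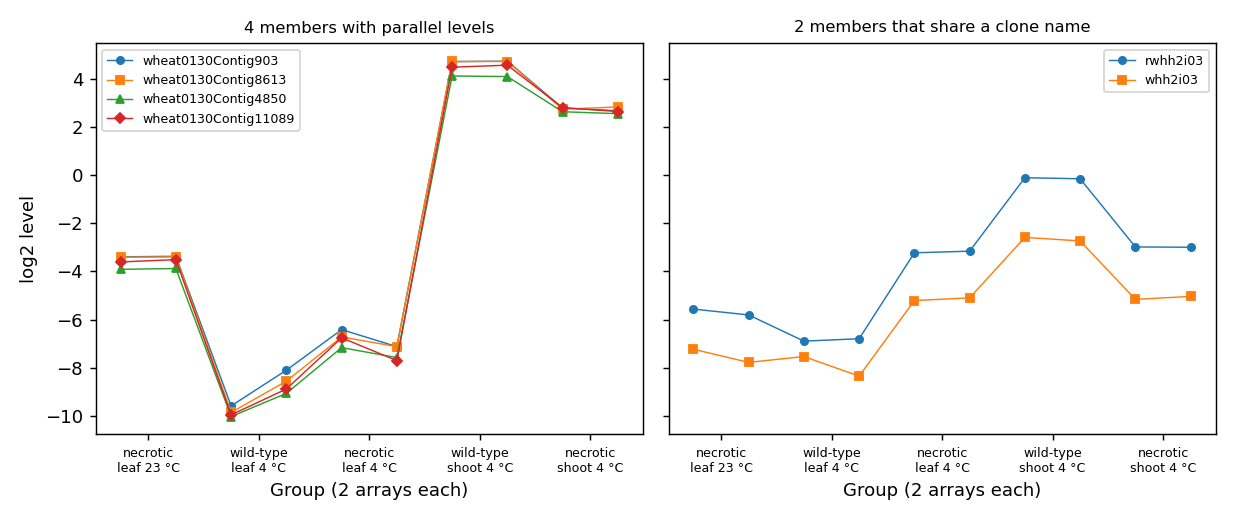
Log2 level on the 10 arrays for 4 members that ran parallel (left) and for 2 members that share a clone name (right); each point is 1 array. The left probes differ by a mean offset of at most 0.51, and the right probes keep their order on every array.

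Names link some members too. whh2i03 and rwhh2i03, which share a clone name, were both members. rwhh2i03 read −5.56 and −5.81 at 23 °C, −6.89 and −6.79 in wild-type cold leaf, −3.23 and −3.16 in necrotic cold leaf, −0.11 and −0.15 in wild-type shoot and −2.98 and −3.0 in necrotic shoot. whh2i03 had line differences of 2.79 in leaf, where wild-type leaf was not well above background, and −2.44 in shoot, beside 3.65 and −2.86 for rwhh2i03. For the other 6 members with a partner of the same stem name on the array, the partner was no member. Of these partners, MUGEST2003_23lib_Contig6913_p_208 and MUGEST2003_23lib_Contig7816_m_75 were well above background on 0 arrays, so they could not have been chosen. rwhe24e20 had a leaf difference of 3.15 and a shoot fall of at least 19.0-fold, as its necrotic shoot was not well above background, and its partner whe24e20 had differences of 0.18 in leaf and 0.81 in shoot. MUGEST2003_23lib_Contig4740_m_671 had a leaf rise of at least 1.19-fold, as its wild-type leaf was not well above background, and a shoot difference of −1.64. Its partner MUGEST2003_23lib_Contig4740_p_256 changed in the same directions, with differences of 1.38 in leaf, under the threshold, and −2.02 in shoot. The wild-type leaf arrays of that partner lay far apart at −10.12 and −7.47. Whether a pair reads opposite strands is not given in the files.

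Probes whose names begin with whsh or rwhsh were 14 of the 117 members (12.0%) and 3.18% of all probes. They were 6 of the 16 members higher in wild-type leaf, 4 of the 10 even members and 4 of the 91 higher in wild-type shoot. Among all 7249 probes at least 2-fold higher in wild-type leaf than in wild-type shoot and well above background on the 4 arrays of these groups, they were 7.30%. Contigs of the wheat0130 form were 60 of the members (51.3%), beside 36.9% of all probes. The files do not say what the name forms stand for. The members were spread over rows 11 to 530 of the 532 rows of the array, and 0 pairs were neighbouring spots.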

How the data were processed

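Per the labels' protocols, Cy3-labelled cRNA of 10 samples was hybridised to one-colour Agilent arrays. The deposited tables hold processed intensity from Agilent Feature Extraction (10.5.1.1 per the file headers, 9.5 per the submitters' processing notes), background-subtracted, detrended and not scaled between arrays per the file headers. The deposited series matrix holds the same intensity, with a largest relative difference of 0, so it is linear, uncentred and has no ratio direction. Values were scaled by each array's 75th percentile over 37826 non-control probes and put on the log2 scale. No spot was saturated (0 on every array); 12 to 143 spots an array had an outlier mark and were missing in the fit but kept in the choice of members, where 1 member had one. limma 3.58.1 (R 4.3.3) fitted 5 group means over 10 arrays to probes well above background on both arrays of some group; called means Benjamini-Hochberg adjusted p under 0.05 and at least 2-fold. The fit was tested on simulated levels with independent noise and no slide effect, so that test does not bear on differences between slides.

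The members, lists and the rule for named probes were chosen with earlier results of these data known. Named were members with the 4 largest leaf rises and shoot falls (all cold arrays measured), the 4 highest and lowest at 23 °C relative to wild-type cold leaf, the 4 brightest in cold necrotic leaf, the 2 nearest each threshold on either side, and the median profile of each pattern at 23 °C. Planned gene lists and markers were not used, since no table names the probes. The normexp alternative used the median spot signal, as the tables hold no mean signal. Alternatives were other background correction, scaling, filters, thresholds, designs and leaving out each array; 1 (raised dim levels) was added after seeing the data.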

Additional observations from a re-analysis of the deposited data

Results flagged for a closer look

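Differences between the lines ran in opposite directions in leaf and shoot, on every array, in 117 probes. This is fixed by how they were chosen, and the difference between the tissues was not tested. In 15 of these probes the order of leaf and shoot turned between the lines, with wild-type shoot at least 2-fold above leaf, necrotic leaf at least 2-fold above shoot and no overlap of arrays. These folds are of the means: 1 of the 15 (wheat0130Contig13387) rests on a spot with an outlier mark and had a necrotic leaf minus shoot difference of 0.11 without it, and in 2 (wheat0130Contig11990 and MUGEST2003_23lib_Contig19496_1374) the wild-type shoot excess is only bounded, at at least 1.86-fold and at least 1.99-fold. That difference between the lines was not tested either, since the choice itself widens it, and the share of all probes that turned was not counted.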

How the results depend on the processing

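The number of members was 117. It was 36 with normexp correction (35 of them members), 44 with differences of at least 2, 310 with at least 1 and 55 with all 8 cold arrays well above background. It was 112 under quantile normalization, but only 89 of those were members, and 120 under scaling to the median (112 shared). Leaving out 1 array gave 114 to 128.

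For cold minus 23 °C necrotic leaf, normexp gave 42 members higher and 18 lower with a median of −0.061. Over all 33045 probes tested it gave 2102 higher and 4693 lower. Of the 48 members well above background on all 10 arrays, 34 were called higher and 6 lower, with a median of 2.46. Over the 27023 probes that passed this filter, 2822 were called higher and 4475 lower. The members' median was 2.61 under quantile normalization and 2.32 under scaling to the median, and 2.26 to 2.35 without 1 array. Calls without 1 array are not given, since such a fit leaves 1 array in a group. Calls over all probes went from 4020 higher and 6009 lower to 4514 and 4554 under quantile normalization, and the median of all probes from −0.18 to −0.05.

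For wild-type leaf minus shoot, the filter on all 10 arrays left 48 members, with 11 called higher, 33 lower and a median of −4.42. Of the 27074 probes that passed it, 7024 were called higher and 7599 lower. The members' median was −3.22 with normexp, −4.80 with quantile normalization, −4.99 with scaling to the median and −5.45 to −5.29 without 1 array. For necrotic leaf minus shoot, that filter gave 22 higher and 16 lower of 48 members, with a median of 0.73. Of the 27072 probes that passed it, 4744 were called higher and 6147 lower. The members' median was −0.015 with normexp, 0.39 with quantile normalization, 0.074 with scaling to the median and −0.46 to −0.35 without 1 array. The sign of this median thus turned with the scaling and also with the filter, and the cause was not tested.

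Same-numbered samples did not deviate together (correlations −0.01 to 0.06), so the numbers do not pair them. A fit with replicate block called 83 members higher and 18 lower by temperature, beside 4015 and 5991 of the 33045 probes tested. In wild-type tissue it called 16 and 91, beside 7874 and 11417 of 33096. In necrotic tissue it called 39 and 51, beside 5480 and 9784 of 33094. The members' counts share arrays with the choice, so nothing is read from them. Of 295 alternative values for the temperature difference of 23 named probes, 288 kept direction and side of an adjusted p of 0.05, whatever the fold. Another 4 newly passed that p: wheat0130Contig14554 with normexp (−1.34) and with only the compared groups (−1.82), and wheat0130Contig4690 with normexp (−0.25) and without necrotic leaf 4 °C replicate 2 (−0.20), the latter probe within 2-fold. The sign reversed in 3, namely wheat0130Contig4690 (0.053 with scaling to the median and 0.067 without necrotic leaf 4 °C replicate 1) and whe18d21 (−0.62 with normexp). With 2 arrays a group and dim signals in wild-type and 23 °C leaf, differences near the background are bounds.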
